A study of Homo sapiens with 40 samples.

Results

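Exon skipping was compared between human cells transcribing with the slow H1106Y form of RNA polymerase II and cells transcribing with the wild-type (WT) enzyme, over every exon that the authors' deposited RASL-seq table for this pair lists. No exon was selected by its values. The table holds 2070 exon rows under 1566 gene identifiers, of 35638 rows in the 5 exon tables of the series. The cells of both groups were of the HEK293 Flp-in T-REx line, derived from human embryonic kidney and carrying 1 recombination site for an inducible transgene. The H1106Y cells carried a pcDNA5 transgene for Rpb1, the large subunit of RNA polymerase II, with the H1106Y substitution, and the WT cells carried the same transgene without it. Rpb1 from the transgene resists α-amanitin, a toxin that blocks the endogenous polymerase. Cells of both groups were kept in hygromycin B and blasticidin, given doxycycline for 12 to 16 h to induce the transgene, and then α-amanitin for 42 h, per the labels. RASL-seq was made from polyA+ RNA of 3 H1106Y libraries and 3 WT libraries. The labels do not say whether these came from separate cultures or whether a line was 1 clone, and the table gives 1 value per genotype, so the spread between libraries and the sequencing depth are unknown. The table holds no expression levels, so the cell line could not be checked against marker genes.

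Introns are removed while the polymerase is still transcribing, so its speed sets how long an upstream splice site waits before a competing downstream site is made. A slow polymerase gives weak sites more time, which can favour inclusion of an exon, and also gives inhibitory proteins more time to bind the nascent RNA, which can favour skipping. RASL-seq anneals pairs of oligonucleotides to the spliced RNA at chosen exon junctions, ligates those that lie side by side and counts the products by sequencing, so it reports a ratio of inclusion to exclusion junctions for a fixed panel of exons. Inclusion is given here as the percentage that the inclusion count makes of inclusion plus exclusion, computed from the deposited ratio. Oligonucleotide pairs ligate with unequal efficiency, so a level compares genotypes at 1 exon and does not give the true share of transcripts. An exon was called when the Benjamini-Hochberg adjusted value of its deposited p, taken over the 2070 rows, was under 0.05. Higher and lower always refer to H1106Y relative to WT.

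The panel covered mostly ordinary internal exons. Exon length ran from 14 to 6255 nt with a median of 98 nt, and 56.2% of exons had a length that is a multiple of 3 and so keep the reading frame when skipped. The span from the upstream to the downstream flanking exon had a median of 7835 nt. Of the rows, 179 shared 86 measurements. In 61 of these the rows had the same upstream edge and another downstream edge, in 2 the same downstream edge, and in 23 the same exon stood under 2 or more gene identifiers. Such rows cannot tell alternative splice sites of 1 exon apart, and 1977 distinct measurements remained.

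Inclusion changed widely in H1106Y cells, in both directions and more often downwards. Of the 2070 exons in the authors' deposited table, 1282 or 61.9% were called. These were 491 higher in H1106Y, 23.7% of the panel, and 791 lower, 38.2% of it. The median inclusion over the panel was 61.4% in H1106Y cells and 67.7% in WT cells, and the median log2 change of the inclusion ratio was −0.33. Called exons that were higher had a median log2 change of 1.75 and a median gain of 11.7 percentage points. For those that were lower these medians were −1.78 and −11.3 points. Changes of 30 points or more were seen in 75 exons that were higher and 122 that were lower, while 602 called exons moved by under 10 points. At the midpoint of the scale, 857 exons were at most 50% in WT cells, and 81 of these were higher and over 50% in H1106Y cells. The other 1213 were over 50% in WT cells, and 132 of these were lower and under 50% in H1106Y cells. Counting only changes of at least 10 points left 266 higher and 414 lower.

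**Figure D1:**
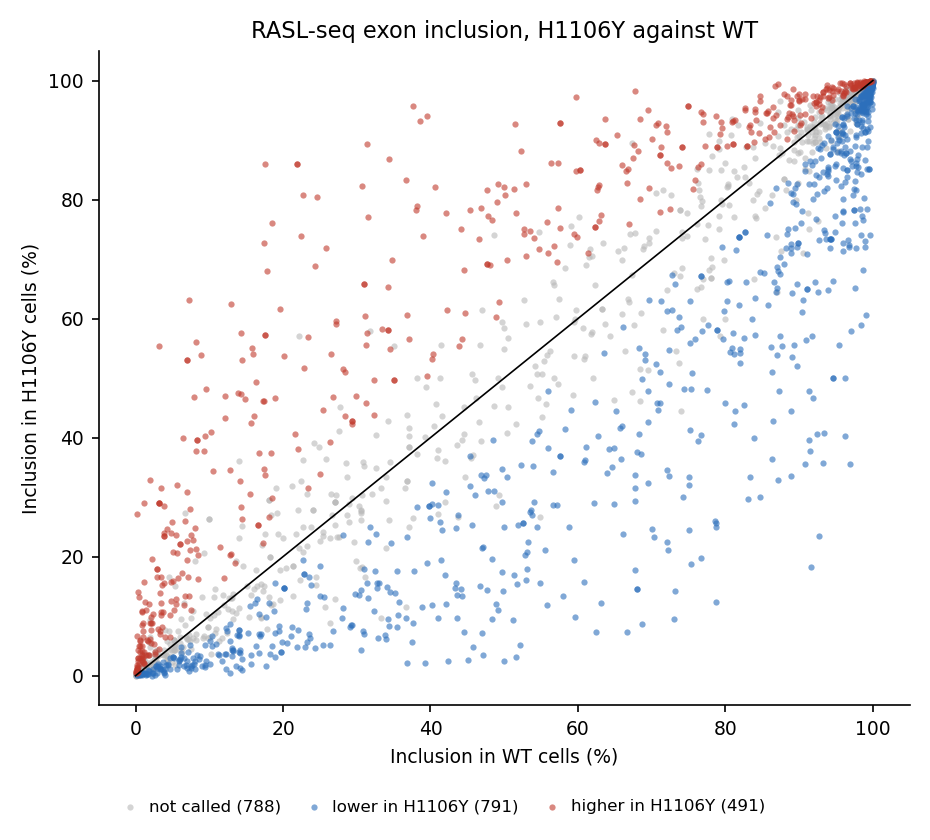
Inclusion (%) in H1106Y cells on the vertical axis against inclusion in WT cells on the horizontal axis, 1 point per exon row of the RASL-seq panel, with the line of no change. The 491 called higher exons lie above the line and the 791 called lower exons below it. The other 788 exons were not called.

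The largest increases brought exons that were mostly skipped in WT cells to mostly included in H1106Y cells. The first was a 164-nt exon of CCNT1 (chromosome 12, 49089782 to 49089945, GRCh37), the cyclin T1 subunit of the kinase that releases paused polymerase. Its inclusion was 86.0% in H1106Y cells, against 17.5% in WT cells, and the authors' deposited table gave a log2 change of 4.86 (adjusted p = 1.2e-55). On RNA-seq the same exon stood at 83.0% in WT cells, so its RASL-seq level is far from its RNA-seq level and the change rests on RASL-seq alone. A 51-nt exon of RCC1 (chromosome 1, 28857035 to 28857085), the exchange factor that charges the GTPase Ran on chromatin, reached 85.9% in H1106Y cells, against 21.9% in WT cells. The same measurement stood for a 93-nt form with the same upstream edge, ending at 28857127, so these forms cannot be told apart. In TRA2A, which encodes an SR-like activator of splicing, a 90-nt exon (chromosome 7, 23570800 to 23570889) was at 80.8% in H1106Y cells and 22.8% in WT cells. SRSF3 encodes an SR protein that limits its own level through a poison exon, which carries an early stop codon into the mRNA. That 456-nt exon (chromosome 6, 36567598 to 36568053) was at 95.7% in H1106Y cells and 37.7% in WT cells, and the authors' deposited table gave a log2 change of 5.19 (adjusted p = 7.2e-151).

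Exons of 4 further genes complete the 8 largest increases. A 126-nt exon of RFC5, a subunit of the clamp loader of DNA replication, was at 89.3% in H1106Y cells and 31.4% in WT cells. A 78-nt exon of ARHGEF28, a guanine nucleotide exchange factor, was at 76.0% in H1106Y cells and 18.5% in WT cells. A 68-nt exon of DIS3, a catalytic subunit of the RNA exosome, was at 63.2% in H1106Y cells and 7.20% in WT cells. A 167-nt exon of USPL1, a SUMO protease, was at 80.4% in H1106Y cells and 24.5% in WT cells. On RASL-seq all 4 of these exons were mostly skipped in WT cells and mostly included in H1106Y cells. Their adjusted p-values, computed here from the authors' deposited p-values, were 1.3e-22 or smaller. On RNA-seq the USPL1 exon stood at 70.8% in WT cells, so there it was mostly included.

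The largest decreases were in exons mostly included in WT cells and mostly skipped in H1106Y cells on RASL-seq. A 167-nt exon of ITSN1 (chromosome 21, 35195791 to 35195957), a scaffold of clathrin endocytosis, was at 18.3% in H1106Y cells and 91.6% in WT cells, a log2 change of −5.61 in the authors' deposited table (adjusted p = 4.3e-111). A 192-nt exon of EFCAB14 (chromosome 1, 47154025 to 47154216), a protein with EF-hand motifs, was at 23.5% in H1106Y cells and 92.7% in WT cells. MARK3 encodes a kinase that phosphorylates microtubule-associated proteins and acts in cell polarity. Its 27-nt microexon (chromosome 14, 103964839 to 103964865) was at 12.4% in H1106Y cells and 78.7% in WT cells, a log2 change of −4.71 in the authors' deposited table (adjusted p = 1.1e-212). On RNA-seq it stood at 46.5% in WT cells, under the midpoint. A 24-nt microexon of SLIT2 (chromosome 4, 20526772 to 20526795), the secreted ligand of the ROBO guidance receptors, was at 9.51% in H1106Y cells and 73.0% in WT cells. RAB6A, a GTPase of traffic at the Golgi, had a 106-nt exon (chromosome 11, 73429658 to 73429763) at 35.5% in H1106Y cells and 96.9% in WT cells.

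A 69-nt exon of PROM1, a pentaspan membrane protein, was at 8.65% in H1106Y cells and 68.7% in WT cells. A 154-nt exon of CDKL3, a kinase related to cyclin-dependent kinases, was at 7.32% in H1106Y cells and 66.7% in WT cells. A 196-nt exon of CCSER2, a coiled-coil protein, was at 14.3% in H1106Y cells and 73.2% in WT cells. If errors are normal, its deposited p implied a standard error of 0.88 for its log2 change of −4.04. The panel median of such errors was 0.35, so the size of the CCSER2 change is less certain. In these 3 exons, too, the authors' deposited table puts H1106Y well under the midpoint and WT over it. The adjusted p-values, computed here from the authors' deposited p-values, were 1.2e-05 or smaller. The smallest adjusted p of the whole panel, 2.8e-222, belonged to a 1017-nt exon of NASP, a histone H1-binding protein whose testis form carries this long in-frame exon. It was at 5.14% in H1106Y cells and 52.1% in WT cells.

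**Figure D2:**
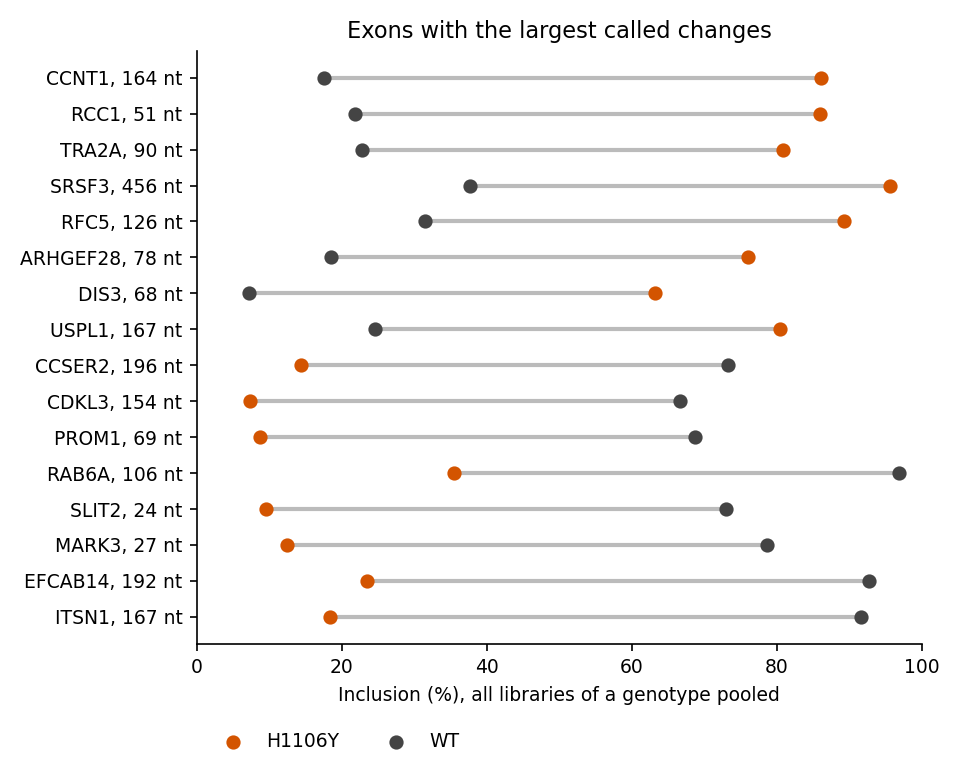
Inclusion (%) in H1106Y cells (orange) and WT cells (dark grey) for the 8 called exons with the largest increase and the 8 with the largest decrease in percentage points, with exon length in nt and pooled values without error. The RCC1 measurement, given for 51 nt, also stood for a 93-nt form. H1106Y lies to the right of WT for CCNT1 (86.0% against 17.5%) down to USPL1, and to the left from CCSER2 to ITSN1 (18.3% against 91.6%).

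The balance of higher and lower exons differed with how often an exon was included in WT cells. Of 530 exons under 20% in WT cells, 185 were higher in H1106Y and 139 lower, with a median log2 change of 0.18. In the class of 20% to 40% the counts were 57 higher and 74 lower of 220, with a median of −0.14. From 40% to 60% they were 51 and 90 of 208, with a median of −0.47, and from 60% to 80% they were 60 and 93 of 242, with a median of −0.42. Of 870 exons over 80% in WT cells, 138 were higher and 395 lower, with a median of −0.67. The share called varied little, from 59.5% to 67.8% over these classes, so it was the balance of directions that moved. Split at 50%, mostly included exons had a median log2 change of −0.59 and mostly skipped exons −0.04, a difference of −0.54. On the percentage scale the median change was largest in the middle class, −7.98 points, where H1106Y cells had a median of 41.3% and WT cells 49.97%. It was 0.18 points under 20% and −0.86 points over 80%, where there is little room to move.

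A straight line of the H1106Y log2 ratio on the WT log2 ratio had a slope of 0.88 and crossed no change at a WT level of 24.6%. The log2 ratios were also less spread over exons in H1106Y cells, with an SD of 4.23, than in WT cells, with an SD of 4.40. Across the 2070 exons the log2 change and the WT log2 ratio had a Pearson r of −0.30 and a Spearman rank correlation of −0.26. This is a description across exons that share libraries, and the same WT counts enter both quantities with opposite sign, which by itself gives a negative r. The WT level on RNA-seq comes from other libraries and was listed for 1592 of the exons. Of these, 349 were over 50% in WT cells on 1 assay and at most 50% on the other. The RNA-seq level is given in the text for only some of these 349. Classed by that level, the median log2 changes were 0.22 under 20%, 0.08 from 20% to 40%, −0.35 from 40% to 60%, −0.31 from 60% to 80% and −0.52 over 80%. With the RNA-seq level r was −0.20 and the difference between mostly included and mostly skipped exons −0.37. For the same 1592 exons on RASL-seq these values were −0.26 and −0.42. The size of the difference depended on how exons were split. It was −0.12 when the split used the mean of the H1106Y and WT log ratios, and −0.18 over exons of 5% to 95% WT inclusion alone.

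R749H, a second slow form, and E1126G, a fast form, were compared with the same WT libraries on RASL-seq. They had 2248 and 2312 exon rows, and 1927 of the 2070 H1106Y rows were listed for both. Each value given for a mutant is over its own rows, so the exons are not all the same. The difference between mostly included and mostly skipped exons was −0.54 for H1106Y, 0.18 for R749H and 0.0080 for E1126G, and the slopes were 0.877, 1.003 and 0.984. In exons over 80% in WT cells the median log2 change was −0.67 for H1106Y, 0.13 for R749H and −0.37 for E1126G. In exons under 20% it was 0.18, −0.05 and −0.36. The median over all exons was −0.33 for H1106Y, 0.05 for R749H and −0.37 for E1126G. These values stand side by side without a test of the difference between mutants, since all rest on 1 set of WT libraries.

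**Figure D3:**
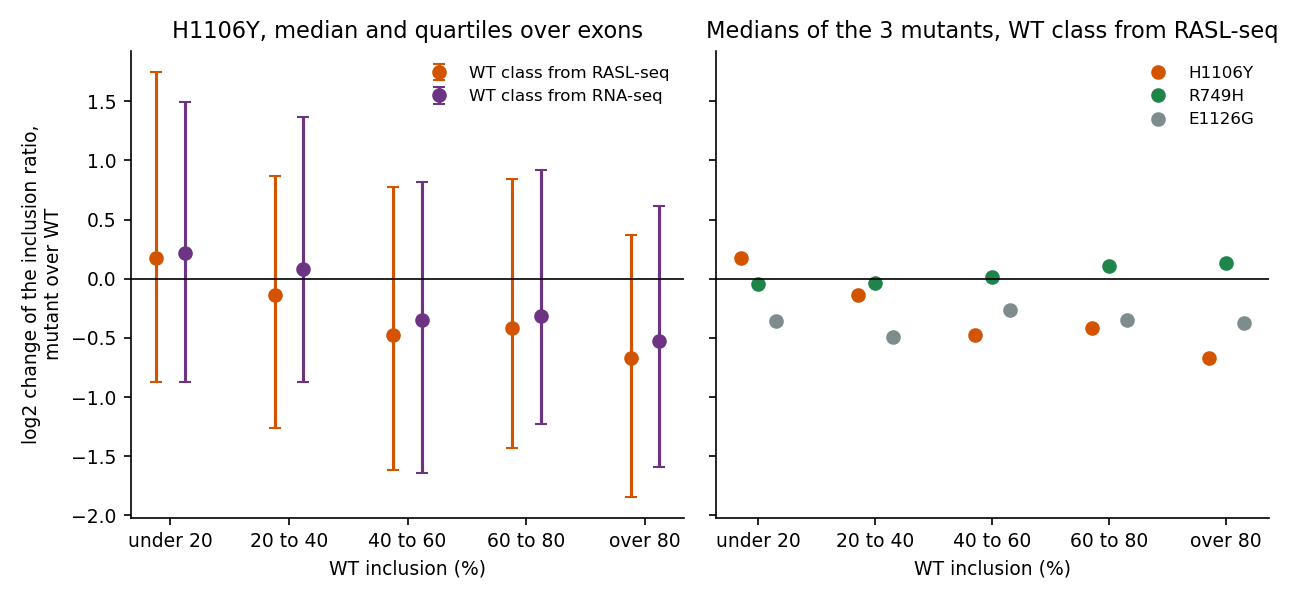
Log2 change of the inclusion ratio (mutant over WT) by class of WT inclusion (%). The left panel gives the H1106Y median and quartiles over exons, with WT classes from RASL-seq (orange) or RNA-seq (purple). The right panel gives the medians of H1106Y, R749H and E1126G, each over its own exon rows. The H1106Y medians go from 0.18 in the lowest class to −0.67 in the highest on RASL-seq, and from 0.22 to −0.52 with classes from RNA-seq.

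Within each WT class there were large changes in both directions. Among exons under 20% in WT cells, a 33-nt exon of NUMB (chromosome 14, 73783098 to 73783130), which lengthens the phosphotyrosine-binding domain of this endocytic adaptor and Notch inhibitor, was at 1.63% in H1106Y cells and 17.7% in WT cells. Exons of ZMYND11, a reader of histone H3 in transcribed genes, and of GTPBP10, a GTPase of the mitochondrial ribosome, also fell. ZMYND11 was at 3.91% in H1106Y cells and 19.8% in WT cells, and GTPBP10 at 3.20% in H1106Y cells and 18.8% in WT cells. On RNA-seq the WT level of these 3 exons was 59.4%, 79.6% and 90.4%, far over the RASL-seq level.

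From 20% to 40% the largest decreases were in C12orf29, AIFM1 and TCF7L2. AIFM1 encodes a mitochondrial flavoprotein with a part in cell death, and its 143-nt exon was at 2.14% in H1106Y cells and 36.8% in WT cells. On RNA-seq WT cells had 99.3% for this exon and 87.5% for the 118-nt exon of C12orf29, which RASL-seq put at 39.2% in WT cells. The 73-nt exon of TCF7L2, a transcription factor of Wnt signalling, was at 5.59% in H1106Y cells and 37.5% in WT cells, and on RNA-seq at 59.3% in WT cells. From 40% to 60%, a 141-nt exon of IVNS1ABP, a kelch protein that binds actin and the influenza NS1 protein, rose to 97.3% in H1106Y cells, against 59.8% in WT cells, and on RNA-seq stood at 22.3% in WT cells. In the same class, a 60-nt exon of TBX3, a T-box repressor, was at 3.11% in H1106Y cells and 51.5% in WT cells, and on RNA-seq at 74.2% in WT cells. A 78-nt exon of RIF1, a regulator of replication timing and DNA repair, was at 2.43% in H1106Y cells and 50.02% in WT cells, and on RNA-seq at 80.6% in WT cells. Each of these exons was called, with adjusted p-values of 6.6e-17 or smaller computed here from the authors' deposited p-values.

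Among exons over 80% in WT cells the increases were small in points because little room was left. The largest were in CHFR, ARFGAP1 and SS18, at 95.4%, 97.3% and 95.1% in H1106Y cells and 82.6%, 84.7% and 82.6% in WT cells. On RNA-seq these exons stood at 81.5%, 98.7% and 40.9% in WT cells, so the SS18 exon was under the midpoint there. CHFR is a mitotic checkpoint ubiquitin ligase, ARFGAP1 an activator of GTP hydrolysis by ARF1 at the Golgi, and SS18 a subunit of BAF chromatin remodelling complexes. The CHFR call was lost under a Bonferroni adjustment. Uncalled exons in the middle of the scale were also looked at. The 5 uncalled exons of 40% to 60% WT inclusion with the smallest log2 changes were in NAPB, SMAD2, PKP4, PRKRIP1 and PIKFYVE, each within 1 point of WT. They were taken for these small values, and an uncalled exon may still have changed. The exon of SMAD2, a transcription factor of TGF-β signalling, was at 60% in H1106Y cells and 59.7% in WT cells, and on RNA-seq at 98.8% in WT cells. That of NAPB, which disassembles SNARE complexes, was at 59.5% in both.

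In some genes, exons of 1 gene moved in opposite directions. Of 293 genes with 2 or more distinct measurements, 73 had both a higher and a lower exon. Another 52 had higher exons alone, 125 had lower exons alone and 43 had no called exon. Over all 1977 distinct measurements 463 were higher and 758 lower. Whether the count of 73 differs from what these shares alone would give was not tested. In ITSN1 the 167-nt exon fell, as given above, while a 46-nt exon further downstream was at 98.2% in H1106Y cells and 67.8% in WT cells. ACIN1, which encodes a subunit of the exon junction complex and its splicing cofactors, had the widest range among genes with 3 or more exons. Its 120-nt exon was at 93.1% in H1106Y cells and 38.6% in WT cells, and its 1358-nt exon at 15.6% in H1106Y cells and 3.89% in WT cells. Its 62-nt exon was at 60.5% in H1106Y cells and 99.1% in WT cells, a log2 change of −6.22 in the authors' deposited table (adjusted p = 3.2e-11).

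RCC1 and RFC5 showed the same mixture. In RCC1, a 129-nt exon upstream of the 51-nt exon was at 7.14% in H1106Y cells and 47.0% in WT cells, while the measurement shared by the 51-nt and 93-nt forms rose. On RNA-seq the 129-nt exon stood at 62.7% in WT cells. In RFC5, the 59-nt exon was at 9.35% in H1106Y cells and 51.1% in WT cells over a span of 1256 nt. The same exon measured over a span of 2179 nt was at 45.8% in H1106Y cells and 31.3% in WT cells, and both differences were called. Inclusion there depended on which flanking exons the junctions joined, so a single percentage does not describe the exon.

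The balance of directions differed with exon length. Among 97 exons of 300 nt or more, 33 were higher and 27 lower in H1106Y, with a median log2 change of 0.21. Among 52 microexons of at most 27 nt, 10 were higher and 23 lower, with a median of −0.69. Between these, 19.4% of 242 exons of 28 to 50 nt were higher and 41.7% lower, and of 775 exons of 51 to 100 nt 168 were higher and 297 lower. Of 778 longer exons up to 200 nt 200 were higher and 290 lower, and of 126 exons over 200 nt and under 300 nt 33 were higher and 53 lower. Medians in those classes lay between −0.54 and −0.25. The balance in a length class also differed with WT level. Of 35 long exons mostly skipped in WT cells, 19 were higher and 2 lower with a median of 1.05, while of 62 mostly included ones 14 were higher and 25 lower with a median of −0.31. Of 27 microexons mostly included in WT cells, 4 were higher and 16 lower with a median of −1.90, while of 25 mostly skipped ones 6 were higher and 7 lower with a median of −0.26. In the same classes R749H had 40 higher and 13 lower of 107 long exons and 8 higher and 24 lower of 56 microexons. E1126G had 28 higher and 29 lower of 110 long exons and 6 higher and 33 lower of 55 microexons.

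Long exons that rose included the poison exons of SRSF3 and SRSF7, both SR proteins. The 449-nt exon of SRSF7 (chromosome 2, 38976040 to 38976488) was at 73.9% in H1106Y cells and 22.5% in WT cells, a log2 change of 3.29 in the authors' deposited table (adjusted p = 3.2e-145). A 672-nt exon of PALLD, an actin cross-linker, was at 67.9% in H1106Y cells and 17.8% in WT cells. Long exons that fell included the NASP exon given above, a 1584-nt exon of YTHDF2, a reader of N6-methyladenosine in mRNA, at 22.4% in H1106Y cells and 72.1% in WT cells, and a 1474-nt exon of SNRNP70, a protein of the U1 snRNP, at 34.6% in H1106Y cells and 72.1% in WT cells. On RNA-seq the SNRNP70 exon stood at 40.1% in WT cells.

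Among microexons, a 24-nt exon of CSNK1G3, a casein kinase, fell beside those of MARK3 and SLIT2, at 25% in H1106Y cells and 78.7% in WT cells. The 3 largest increases of microexons were in MAX, FSTL4 and NCOR1. The 27-nt exon of MAX, the partner of MYC, was at 43.7% in H1106Y cells and 16.0% in WT cells. On RNA-seq it stood at 60.1% in WT cells. The 27-nt exon of FSTL4, a follistatin-like protein, was at 92.9% in H1106Y cells and 70.9% in WT cells, and that of NCOR1, a nuclear receptor corepressor, at 76.2% in H1106Y cells and 55.8% in WT cells. On RNA-seq the NCOR1 exon stood at 41.1% in WT cells.

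The balance also differed with the length of the gene segment around the exon. With a span of at most 2 kb between the flanking exons, 86 of 275 exons were higher and 77 lower in H1106Y, with a median log2 change of 0.22. From 2 to 5 kb, 126 of 450 were higher and 175 lower, with a median of −0.26. From 5 to 10 kb, 75 of 457 were higher and 205 lower, with a median of −0.68. The medians were −0.52 from 10 to 20 kb and −0.23 over 20 kb, so the change did not go on in 1 direction with span. At both WT levels the span of 5 to 10 kb had the lowest median, −0.95 for mostly included and −0.35 for mostly skipped exons. The introns on each side followed a like pattern. The median was 0.09 with an upstream intron of up to 1 kb and −0.70 with one of 2 to 5 kb. It was 0.08 with a downstream intron of up to 1 kb and −0.57 with one of 2 to 5 kb. Exons whose length is a multiple of 3 had a median of −0.26, with 300 higher and 430 lower of 1164, and the other 906 exons a median of −0.42, with 191 higher and 361 lower. In mostly skipped exons these medians were −0.06 and −0.03. In mostly included exons they were −0.44 and −0.71. In spans of at most 2 kb the median was 0.22 for H1106Y, 0.53 for R749H and −0.18 for E1126G, and in spans of 5 to 10 kb it was −0.68, −0.20 and −0.44.

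**Figure D4:**
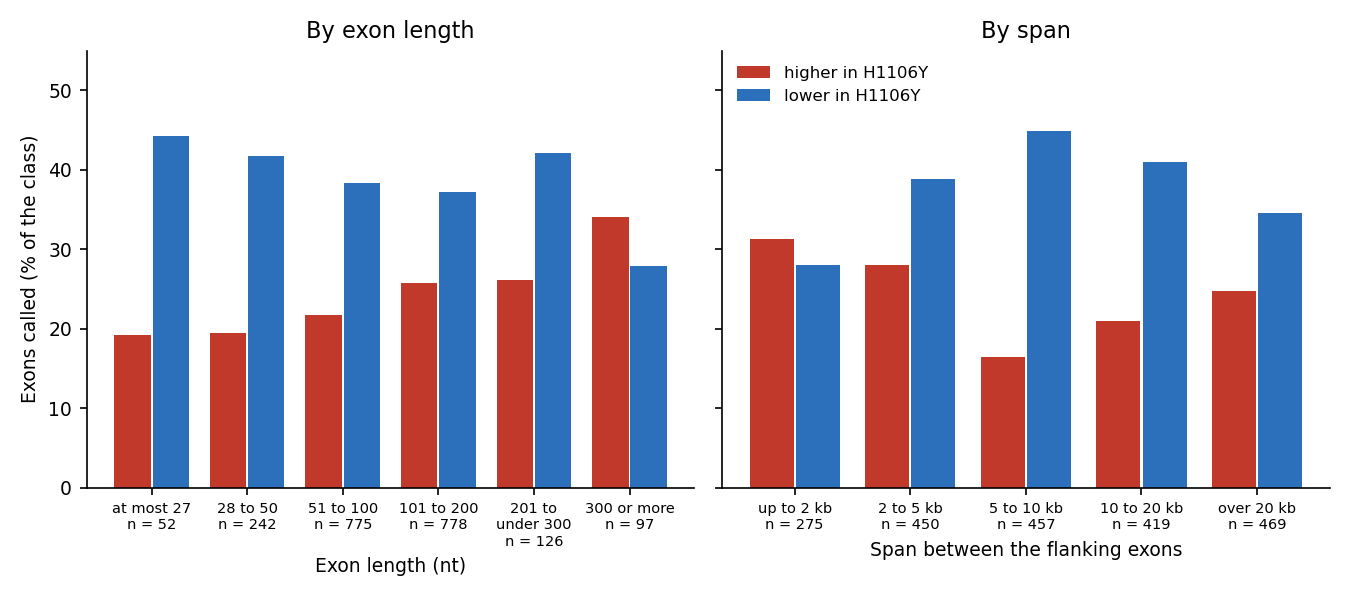
Share of exons (%) called higher (red) or lower (blue) in H1106Y than in WT, by exon length in nt (left) and by span between the flanking exons (right), with the number of exons under each class. Lower exons outnumber higher ones in every class except exons of 300 nt or more (33 higher, 27 lower) and spans of at most 2 kb (86 higher, 77 lower).

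Gene groups were read against all 1977 distinct measurements, of which 463 were higher, 758 lower and 61.8% called, with a median log2 change of −0.33. Among SR proteins and their cofactors and kinases, 16 genes of the 31 listed were measured, in 25 measurements. Of these 12 were higher and 6 lower, and the median was 0.63. The median WT inclusion was 38.6% in this list and 67.5% over all distinct measurements. The balance of directions differed with WT level over the panel. Whether this or any other list leaned apart from its WT level was not tested. Beside SRSF3, SRSF7, TRA2A and ACIN1, the increases included CLK1 and SRPK2, kinases that phosphorylate SR proteins. A 91-nt exon of CLK1 was at 37.7% in H1106Y cells and 9.25% in WT cells. A 64-nt exon of SRPK2 was at 47.0% in H1106Y cells and 12.1% in WT cells. These 2 exons were chosen for mention after their values were seen. The largest decrease of this list was in the 62-nt exon of ACIN1 given above, at 60.5% in H1106Y cells and 99.1% in WT cells. Lower exons also included the 41-nt exon of BCLAF1, at 85.4% in H1106Y cells and 96.0% in WT cells. A second exon of TRA2A, of 312 nt, was at 73.6% in H1106Y cells and 81.9% in WT cells, and on RNA-seq at 37.9% in WT cells. The call of this TRA2A exon was lost under a Bonferroni adjustment.

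Other splicing regulators moved both ways, with 13 higher and 11 lower of 37 measurements in 23 genes and a median of −0.20. A 63-nt exon of FUBP1, a single-strand nucleic acid-binding protein, was at 28.5% in H1106Y cells and 3.91% in WT cells. A 376-nt exon of TIAL1, a U-rich RNA-binding protein, was at 46.5% in H1106Y cells and 14.8% in WT cells. A 139-nt exon of HNRNPH3 was at 29.4% in H1106Y cells and 67.7% in WT cells. A 171-nt exon of HNRNPDL was at 68.1% in H1106Y cells and 98.6% in WT cells. A 93-nt exon of RBFOX2, a regulator that binds near alternative exons, was at 73.0% in H1106Y cells and 99.0% in WT cells. In the core spliceosome 11 genes had 12 measurements, of which 1 was higher and 5 lower, with a median of −0.93. The 1 that was higher was a 96-nt exon of PRPF3, a protein of the U4/U6 snRNP, at 37.5% in H1106Y cells and 18.3% in WT cells. Beside SNRNP70, the lower ones included a 51-nt exon of PUF60, a U2AF-related factor, at 66.1% in H1106Y cells and 86.6% in WT cells.

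Of the factors that act on the polymerase itself, 7 genes had 10 measurements, 6 higher and 2 lower, with a median of 1.15. Their median WT inclusion was 27.6%. Cyclin T1 (CCNT1) led the increases, as given above. An exon of 148 nt in CCNL1, the cyclin L1 partner of CDK11, was at 28.9% in H1106Y cells and 3.13% in WT cells. On RNA-seq it stood at 62.4% in WT cells. An 87-nt exon of CCNT2, cyclin T2, went the other way, at 0.523% in H1106Y cells and 12.8% in WT cells. In RNA surveillance and 3′ end processing, 5 of 20 measurements were higher and 10 lower, with a median of −0.13. UPF3B and UPF3A link the exon junction complex to nonsense-mediated decay. A 91-nt exon of UPF3B was at 14.5% in H1106Y cells and 68.1% in WT cells. In UPF3A a 99-nt exon was at 20.3% in H1106Y cells and 52.8% in WT cells, and a 56-nt exon at 40.4% in H1106Y cells and 76.6% in WT cells.

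Among chromatin regulators 12 of 51 measurements were higher and 21 lower, with a median of −0.28. A 54-nt exon of SMARCA2, an ATPase of BAF complexes, was at 12.0% in H1106Y cells and 42.1% in WT cells. A 357-nt exon of SETDB2, a histone methyltransferase, was at 28.6% in H1106Y cells and 56.6% in WT cells. A 114-nt exon of ATRX, a chromatin remodeller, was at 68.2% in H1106Y cells and 44.6% in WT cells, and on RNA-seq at 88.5% in WT cells. A 117-nt exon of EZH2, the catalytic subunit of PRC2, was at 75.3% in H1106Y cells and 57.5% in WT cells.

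In the apoptosis list 9 of 22 measurements were higher and 8 lower, with a median of 0.49. The median WT inclusion of this list was 33.8%. A 129-nt exon of APAF1, the core of the apoptosome, was at 82.4% in H1106Y cells and 30.8% in WT cells, and on RNA-seq at 58.2% in WT cells. The 63-nt exon of FAS (chromosome 10, 90770510 to 90770572), which encodes the membrane anchor of this death receptor, was at 71.0% in H1106Y cells and 89.0% in WT cells, a log2 change of −1.72 in the authors' deposited table (adjusted p = 1.2e-25). In p53, cell cycle and genome maintenance genes 10 of 49 measurements were higher and 22 lower, with a median of −0.42. RCC1 and RFC5, given above, were among its largest changes both ways.

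Cytoskeleton and adhesion genes had 10 higher and 35 lower of 65 measurements, with a median of −0.86. Their median WT inclusion was 44.3%. Of their 42 genes, 22 had lower exons alone, 4 had higher exons alone and 5 had both. Such counts by gene were not made over all genes of the panel, so these have no background to be read against. A 93-nt exon of MAP2, a neuronal microtubule-associated protein, was at 11.8% in H1106Y cells and 55.8% in WT cells. A 76-nt exon of TPM3, an actin-binding tropomyosin, was at 3.40% in H1106Y cells and 47.1% in WT cells. A 42-nt exon of KIF1B, a kinesin motor, was at 50% in H1106Y cells and 96.2% in WT cells, and its call was lost under a Bonferroni adjustment. Besides PALLD, the increases included a 57-nt exon of EPB41, which ties spectrin to actin, at 40.7% in H1106Y cells and 21.6% in WT cells. Membrane traffic genes had 9 higher and 19 lower of 46 measurements, with a median of −0.66. The 78-nt exon of DNM1L, the GTPase of mitochondrial fission, was measured over a pair of spans, at 88.2% in H1106Y cells and 52.3% in WT cells over 1102 nt, and at 76.5% in H1106Y cells and 48.3% in WT cells over 2902 nt. On RNA-seq the WT level over 2902 nt was 53.2%.

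Kinase and signalling genes had 22 higher and 25 lower of 69 measurements, with a median of −0.19. In FGFR2, a receptor of fibroblast growth factors, a 145-nt exon was at 46.9% in H1106Y cells and 7.86% in WT cells. A 108-nt exon of AXIN1, a scaffold of the β-catenin destruction complex, was at 32.0% in H1106Y cells and 5.61% in WT cells. On RNA-seq these exons stood at 79.4% and 40.3% in WT cells. The largest decreases of this list were in MARK3, SLIT2 and CSNK1G3, given above.

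**Figure D5:**
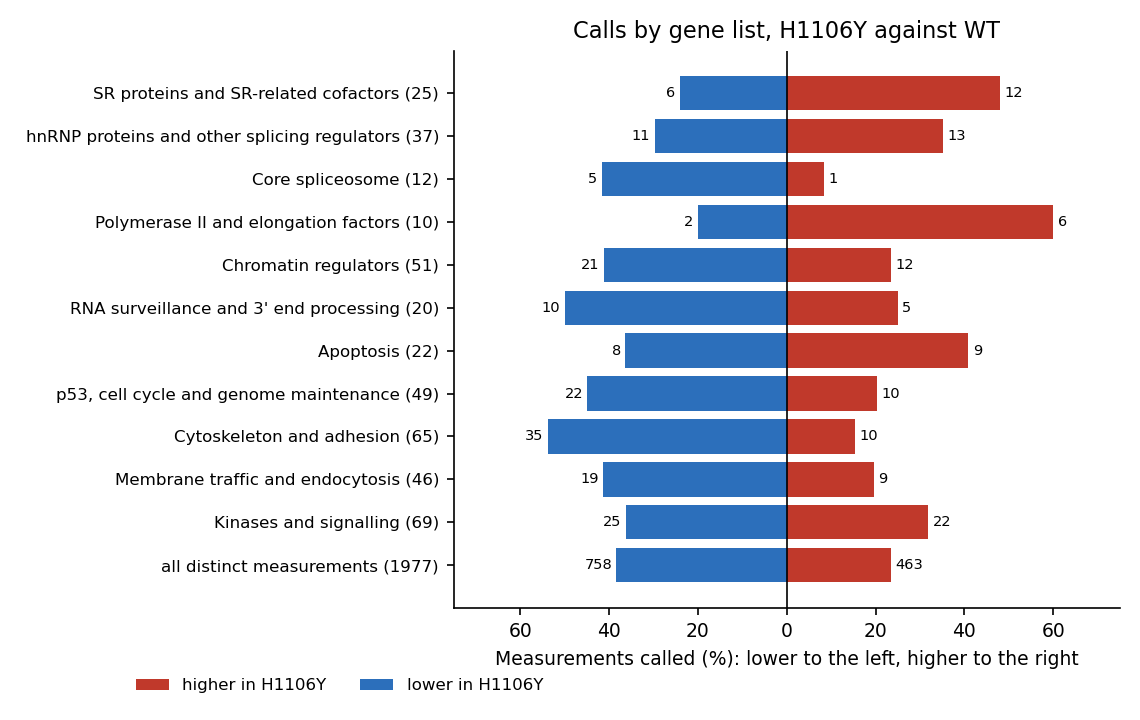
Share of distinct measurements (%) called lower in H1106Y (blue, to the left) or higher (red, to the right) for 11 gene lists and for all 1977 distinct measurements, with the number called at each bar and the number measured in brackets. The SR list (12 higher, 6 lower) and the list of polymerase and elongation factors (6 higher, 2 lower) lean to the right. The cytoskeleton list (10 higher, 35 lower) leans to the left. Median WT inclusion in these lists, in that order, was 38.6%, 27.6% and 44.3%, against 67.5% over all measurements.

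Some of these exons are given here in the other mutants. They were taken for large H1106Y changes, so values nearer to WT in another mutant follow in part from that choice. The MARK3 microexon was at 12.4% in H1106Y cells, 47.2% in R749H cells and 20.1% in E1126G cells, against 78.7% in WT cells. The SLIT2 microexon was at 9.51% in H1106Y cells, 26.0% in R749H cells and 15.7% in E1126G cells, against 73.0% in WT cells. In these 2 microexons slow and fast mutants all lay under WT. The PROM1 exon was at 8.65%, 38.7% and 16.8% in H1106Y, R749H and E1126G cells, against 68.7% in WT cells. For the SRSF3 exon these values were 95.7%, 67.6% and 72.2%, against 37.7% in WT cells. For the RFC5 126-nt exon they were 89.3%, 66.5% and 75.8%, against 31.4% in WT cells. In these exons, too, all 3 mutants lay on the same side of WT. The ITSN1 167-nt exon was at 18.3% in H1106Y cells, 62.4% in R749H cells and 87.2% in E1126G cells, against 91.6% in WT cells. The EFCAB14 exon was at 23.5%, 68.7% and 88.4% in H1106Y, R749H and E1126G cells, against 92.7% in WT cells. The CCNT1 exon was at 86.0%, 50% and 22.6% in H1106Y, R749H and E1126G cells, against 17.5% in WT cells. The TRA2A 90-nt exon was at 80.8%, 54.1% and 28.5% in H1106Y, R749H and E1126G cells, against 22.8% in WT cells. HNRNPDL, at 68.1% in H1106Y cells, was at 98.1% in R749H cells and 98.3% in E1126G cells, against 98.6% in WT cells. The values of the 3 mutants come from the authors' deposited tables with 1 WT set, and differences between mutants were not tested.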

How the data were processed

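Only the authors' deposited tables were used, which hold 1 value per genotype and no value per library. Per the file headers and a check of the values, each row gives an exon with its coordinates and 3 numbers. The authors gave the WT inclusion-to-exclusion count ratio as a natural log. They gave the mutant's change of that ratio over WT as a log2 value, as deposited. The last is the authors' deposited p-value, unadjusted. In 62.9% of rows the WT ratio came out as a fraction of whole numbers when read as a natural log (largest denominator 300, relative tolerance 1e-09), against 0.338% with base 2. The H1106Y ratio was whole in 72.0%, against 5.60% with the opposite sign. What test gave the p-value, and if it took in the spread between libraries, is not given in the sources used. The submitters' processing notes name Bowtie 0.12.7 and edgeR 3.7.17, with no role, and GRCh37. Coordinates are printed 1-based.

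Inclusion is the percentage of inclusion counts among inclusion and exclusion counts that a ratio implies. The Benjamini-Hochberg adjustment ran over the 2070 rows with a threshold of 0.05, in Python 3.11.15 with numpy 2.4.6, pandas 2.3.3 and scipy 1.17.1. This step was checked on simulated data whose p-values were correct by construction. That check says nothing of whether the deposited p-values are sound. The p-values compare these libraries, and a p-value may reflect technical spread only. The RNA-seq tables of the other mutants gave the WT level on RNA-seq. Gene symbols were found for 1545 of 1566 identifiers.

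Exons to describe were taken from called exons by rule. They were the 8 largest changes in points each way, the 3 largest each way in each WT class, among exons of at most 27 nt and of 300 nt or more and in each of 11 gene lists, and the 5 smallest adjusted p-values. To these were added 5 uncalled exons of 40% to 60% WT inclusion with the smallest log2 change, and the 4 genes of 3 or more exons with the widest range. Rows sharing a measurement counted once. Some exons the rule takes are not reported here. The members, the lists and the rule were chosen with earlier results of these data known. Alternatives covered thresholds, adjustment, row choice, minimum change, the line fitted and the split by WT level. GRO-seq and retained introns are not used here.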

Additional observations from a re-analysis of the deposited data

How the results depend on the processing

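A threshold of 0.01 or 0.1, adjustment over the 3 RASL-seq tables together, 1 row per distinct measurement, 1 row per exon listed under several genes, exons in all 3 tables and a direction taken around the median each kept the counts within 1.5 times of 491 higher and 791 lower. A Bonferroni adjustment gave 302 higher and 489 lower, a minimum change of 10 points 266 and 414, and exons of 5% to 95% WT inclusion 339 and 498. Lower exons outnumbered higher ones in each of these. The median log2 change of −0.33 became −1.01 over called exons alone. The slope of 0.88 ran from 0.80 to 0.96 over the alternatives, with the major axis line, which allows for error in both genotypes, nearest to 1. The difference between mostly included and mostly skipped exons, −0.54, was −0.52 over distinct measurements, −0.37 when split on RNA-seq, −0.18 over exons of 5% to 95% WT inclusion and −0.12 when split on the mean of the H1106Y and WT log ratios. For R749H it was 0.18, of the opposite sign. For E1126G it was 0.0080, with nearly equal medians of −0.36 for mostly included and −0.37 for mostly skipped exons. The cause of these shifts was not tested. Of the 103 exons taken by rule, 10 were no longer called under a Bonferroni adjustment and 0 under adjustment over the 3 tables. The alternative with 1 row per distinct measurement, and the RASL-seq split on exons with an RNA-seq row, were added after seeing the data. No paired analysis was possible because the deposited tables hold no value per library, and for the same reason no library could be left out. Depth per exon is unknown, so an uncalled exon may have changed.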
